A study of Mus musculus with 44 samples.

Results

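The expression changes measured here are those of Kdm5b mutant mice 3 h after contextual fear conditioning. The comparison took the raw gene counts of the 6 Kdm5bDARID/DARID libraries of the second cohort collected 3 h after the shocks and set them against the 6 Kdm5bDARID/DARID libraries at baseline, which makes 12 of the 36 libraries with counts in that cohort and 12 of the 44 samples of the series. Each library is the dorsal hippocampus of 1 mouse, with 3 mice labelled male and 3 labelled female in each group. By label, the mutants of both groups were homozygous for the Kdm5b tm1Jtpu (ΔARID) allele, a germline allele, and 2 of the 12 libraries went against a label, as given below. The mice were F2 littermates of a cross of C57BL/6J with 129S2/Sv, and samples were taken at 7 to 8 weeks of age. Mutants at 3 h had explored a chamber and received foot shocks there, while mutants at 0 h stayed in the home cage and were test-naive, so the effects of exploration, handling and shock cannot be told apart. The matching WT littermates at 0 h and 3 h, with 6 libraries each, and the mutants at 1 h, with 6 libraries, are given only beside these results.

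KDM5B is a histone demethylase that removes methyl groups from lysine 4 of histone H3, a mark found at the promoters of active genes. The ΔARID allele lacks the ARID domain and part of the adjoining JmjN domain, and the enzyme it encodes has lost its demethylase activity. Fear conditioning pairs a place with a shock and needs the dorsal hippocampus. It starts a wave of transcription in which immediate early genes such as Fos and Arc peak within the first hour, and in which slower genes for synapse growth, metabolism and the stress hormone response follow. The comparison asks which genes were still different, or had become different, in mutants 3 h after training. Kdm5b itself, at chr1:134560178-134632878 in GRCm38.p6, ranged from 75.8 to 86.7 CPM (median 80.2) at 0 h and from 77.6 to 93.8 CPM (median 83.8) at 3 h. The groups differed by 0.06 (SE 0.04) on the log2 scale, so its level at 3 h differed from that at 0 h by less than the spread between mice. A count over the whole gene cannot show the deleted exons.

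Library totals in the 12 libraries ran from 56774704 to 78675309 counts, and 17698 genes had enough counts to be tested. Levels are given as CPM, in which each count is divided by the size of its library after TMM scaling, an edgeR method that corrects for differences in library composition. CPM compares a gene between libraries and does not correct for gene length. CA1, CA3, dentate granule cell, interneuron and glial markers were all detected, as the tissue label implies, and no marker list had a marker with a median of 0 counts. Choroid plexus markers, 13 genes of a tissue that lies beside the hippocampus, varied most, with a sum of 258.7 to 4026 CPM at 0 h (median 467.9) and 236.1 to 5408 CPM at 3 h (median 2364). Of the 13, all were higher at 3 h by sign, with a median log2 fold change of 1.02, and 0 were at an unadjusted p under 0.05. Without the library labelled 3 h female 2, described below, the 3 h median was 1391 CPM, and 9 of the 13 were higher with a median log2 fold change of 0.15. When the library labelled 0 h male 1, which held the 4026 CPM, was left out as well, all 13 were higher. Their median log2 fold change was then 0.92, again with 0 at an unadjusted p under 0.05. A fit with the choroid plexus sum as a covariate called 0 genes, and is given where it turns a sign. Dentate granule cell markers summed to 358.5 to 476.2 CPM at 0 h and 358.7 to 545.4 CPM at 3 h, and 2 of the 9 were higher at 3 h at an unadjusted p under 0.05, or 3 without the 2 libraries described next, beside 4.73% and 5.13% of all genes. At that p 2 of 10 microglia, 2 of 8 endothelial and 2 of 8 striatum markers were lower, beside 3.63% of all genes, and 0, 1 and 0 without those libraries. Conversely, 0 of 10 astrocyte, 1 of 12 oligodendrocyte and 1 of 7 neocortex markers were lower at that p, and 2 of each without those libraries, beside 3.77% of all genes. Oligodendrocyte markers had a median log2 fold change of 0.00 over 12 libraries and of -0.13 without those 2. Beside the dentate genes, the markers higher at that p over 12 libraries were 1 CA1, 1 endothelial and 1 mural cell or fibroblast gene. Sums overlapped between groups, at 339 to 438.1 CPM and 338.7 to 431.7 CPM for microglia, 143.2 to 193.2 CPM and 142.8 to 165.5 CPM for endothelial cells, and 82.7 to 156.5 CPM and 88.5 to 114 CPM for striatum at 0 h and 3 h. The part of these markers in the results was otherwise not tested.

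Among the 12 libraries, 2 went against a label. Ddx3y of the Y chromosome had 4185 counts and Xist 36 in the library labelled mutant 3 h female 2, where the 5 other libraries labelled female in this comparison held at most 2 of Ddx3y and at least 41337 of Xist. The genotype labels were then compared with the 20 genes that differed most between genotypes over 32 libraries of the cohort, a check added after seeing the data. The 16 mutant libraries used were nearer the WT median at no more than 3 of these genes, and the 16 WT libraries used at no fewer than 16. The genes were chosen for their difference over these same libraries, so a clear split among them follows from the choice. The library labelled mutant 3 h female 2 was nearer the WT median at 18 of 20, and so was the library labelled mutant 0 h male 1. Eya1, a developmental transcription cofactor and the first of the 20, ran from 27.3 to 32.0 CPM in the mutant libraries used and from 17.0 to 23.6 CPM in the WT libraries used, and these 2 libraries held 20.9 and 20.3 CPM. In WT, the library labelled WT 0 h male 1 was nearer the WT median at 5 of the 20 genes only. The library labelled WT 1 h male 1 was nearer it at 3 of the 20, and held 51186 counts of Xist and 0 of Ddx3y, the reverse of the library labelled mutant 3 h female 2 in both genotype and sex. Whether these 2 libraries were exchanged was not tested, and if they were, the values given below for mutant 3 h female 2 would be those of a WT mouse at 1 h. It was likewise not tested whether the libraries labelled mutant 0 h male 1 and WT 0 h male 1 were exchanged. WT gene list counts and WT fold changes below keep the library labelled WT 0 h male 1. Without it, WT genes at an unadjusted p under 0.05 went from 754 higher and 720 lower to 507 and 518. WT list counts were not taken without it. All libraries stayed in the groups of their labels, and the counts over all genes and the values that moved are given below with and without the 2 mutant libraries. Where no such count is given for a gene list, it moved by at most 2 genes in either direction without both, and of the genes with a fold change below the sign turned in Fos and Egr1. The 32 libraries were those left after 2 were set aside for their sex counts and 2 for their distance in a first pass over 34, and the counts are given as a description without a test.

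**Figure D1:**
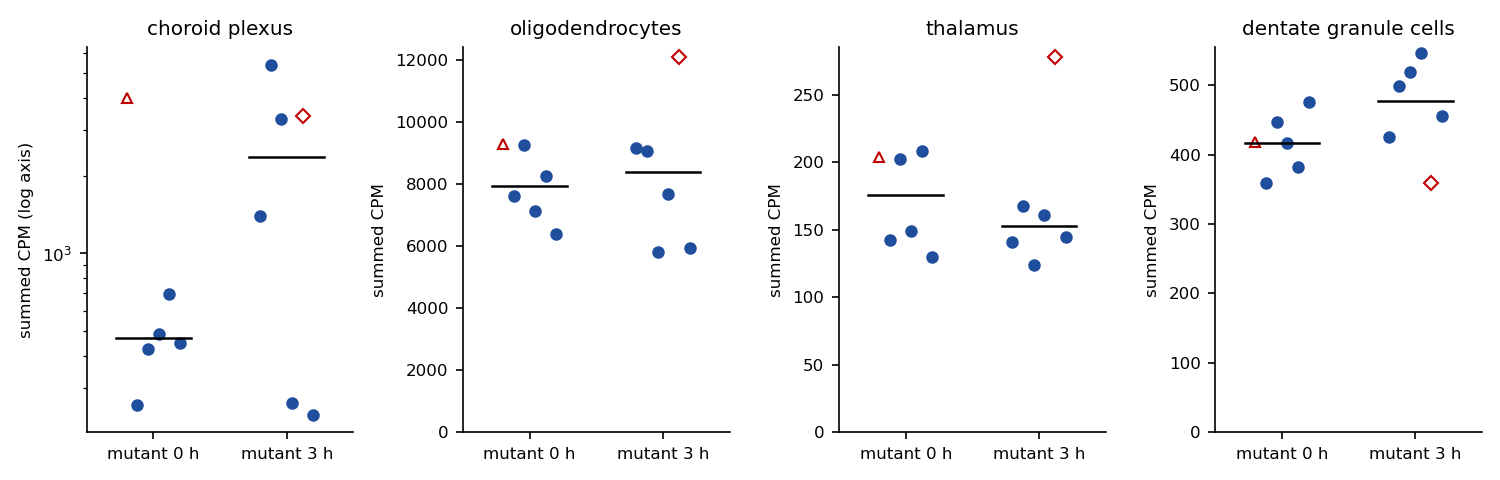
Summed CPM of the marker genes of 4 cell or tissue types (y axis, logarithmic for choroid plexus) in each mutant library at 0 h and 3 h. Points are libraries, lines are medians, the red diamond is the library labelled 3 h female 2 and the red triangle the library labelled 0 h male 1. Choroid plexus sums ran from 236.1 to 5408 CPM, and the red diamond held the highest oligodendrocyte sum, 12110 CPM.

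The genes with the smallest p 3 h after training were nearly all higher in trained mutants. Of the 25 named genes with the smallest p, 24 were higher at 3 h, and Tmed5 alone was lower. They include the lipase Pnpla2, the endoplasmic reticulum (ER) chaperone Hspa5 with its regulator Xbp1, the immediate early genes Fosb and Nr4a2, the insulin signalling adaptor Irs2 and the triglyceride enzyme Dgat2. Log2 fold changes are 3 h against 0 h throughout. Differences were small, with a median size of 0.078 on the log2 scale over all genes tested and 0.215 over the genes higher at an unadjusted p under 0.05.

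By edgeR's quasi-likelihood test with Benjamini-Hochberg adjustment, no gene passed an adjusted p of 0.05 (0 of 17698, 0%), and the smallest adjusted p was 0.253. At an unadjusted p under 0.05, 838 genes were higher at 3 h (4.73% of those tested) and 643 were lower (3.63%). In 56 genes all 6 libraries at 3 h lay above all 6 at 0 h (0.316%), and in 32 genes all 6 lay below (0.181%). DESeq2 on the same 12 libraries, with sex as labelled, called 109 genes higher and 32 lower, and DESeq2 with a prior on fold changes, no covariate and all 18 mutant libraries called 190 and 55. The 25 genes with the smallest p in edgeR were called by both DESeq2 fits. Limma's voom with sample quality weights called 0 genes. Whether any gene is called therefore depended on the tool, and below a gene is said to be higher or lower, with its values, and not to have changed.

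Without the library labelled 3 h female 2, edgeR gave 1067 genes higher (5.97%) and 905 lower (5.07%) at an unadjusted p under 0.05, and 1 was called, Pde10a. Without both libraries that went against a label, it gave 912 higher (5.13%) and 670 lower (3.77%), Pde10a was again the 1 gene called, and DESeq2 called 153 and 51. Leaving out the library labelled 0 h female 2 gave 10 genes called higher, among them Pnpla2, Plcl1, Spns2 and Atp10a. Leaving out any other single library gave 0 calls.

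**Figure D2:**
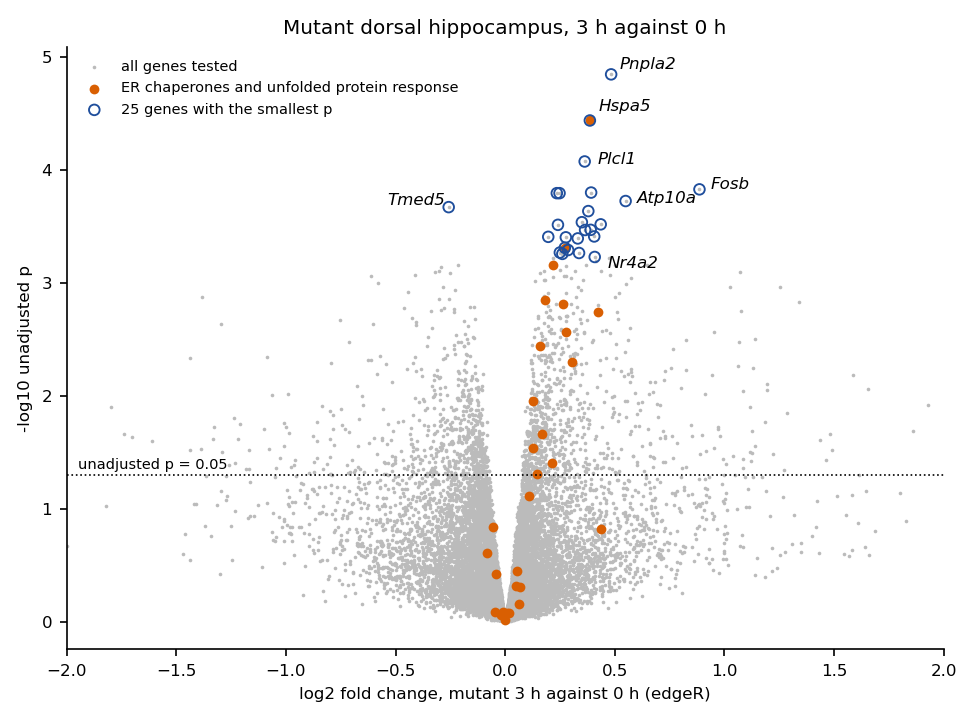
Log2 fold change of mutants at 3 h against 0 h (x axis) and the negative log10 of the unadjusted edgeR p (y axis) for the genes tested, with 13 genes of larger fold change outside the axis. Orange points are the 29 genes of the ER list, open circles the 25 genes with the smallest p, of which 24 lie to the right of 0.

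Pnpla2 encodes adipose triglyceride lipase, which starts the breakdown of stored fat. The gene lies at chr7:141455188-141460743, and its level ranged from 15.4 to 18.5 CPM (median 16.5) at 0 h and from 19.8 to 27.0 CPM (median 23.3) at 3 h. All 6 libraries at 3 h lay above all 6 at 0 h. For Pnpla2 this gave a log2 fold change of 0.48 (SE 0.07) at an unadjusted p of 1.43e-05, the smallest p of the comparison, and the adjusted p was 0.253 in edgeR and 1.99e-05 in DESeq2. Without both libraries that went against a label the log2 fold change was 0.49, and the WT fold change was 0.41 (SE 0.15).

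Plcl1 encodes a phospholipase C-like protein that binds inositol phosphates and GABA-A receptor partners. Its level ranged from 52.6 to 67.2 CPM (median 59.6) at 0 h and from 68.1 to 87.3 CPM (median 76.2) at 3 h, again with no overlap between groups. For Plcl1 the log2 fold change was 0.36 (SE 0.07), and the unadjusted p was 8.44e-05. Atp10a, a phospholipid flippase of the plasma membrane, ranged from 6.80 to 10.6 CPM (median 7.58) at 0 h and from 10.7 to 13.1 CPM (median 11.5) at 3 h, without overlap. This gave a log2 fold change of 0.55 (SE 0.11). Dgat2, which makes triglycerides, ranged from 75.6 to 97.3 CPM (median 89.8) at 0 h and from 104 to 148 CPM (median 110) at 3 h, and its highest library, 3 h male 2 at 148 CPM, stood apart from the other 5. On the log2 scale the difference was 0.39 (SE 0.08). Thus a lipase and a triglyceride synthase were both among the 25, and both were higher at 3 h.

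Tmed5, a cargo receptor of vesicles that move between the ER and the Golgi, was the 1 gene of the 25 that was lower. It ranged from 35.3 to 41.2 CPM (median 38.2) at 0 h and from 30.0 to 34.4 CPM (median 31.9) at 3 h, and all 6 libraries at 3 h lay below all 6 at 0 h. The log2 fold change of Tmed5 was -0.26 (SE 0.05), at an unadjusted p of 0.000214. Further members of the 25 with no overlap between groups included Fosb, Xbp1, Sdk2, Adamts17, Gcn1 and Slc25a42. Sdk2 is an adhesion molecule of synapses, Adamts17 a secreted metalloprotease, Gcn1 an activator of the stress kinase GCN2 and Slc25a42 a mitochondrial carrier of coenzyme A. The log2 fold changes of these 6 lay between 0.26 (SE 0.06), in Slc25a42, and 0.89 (SE 0.16), in Fosb.

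Pde10a, a phosphodiesterase that degrades cyclic AMP and cyclic GMP, was read differently with and without the library labelled 3 h female 2. Its level ranged from 87.8 to 98.1 CPM (median 90.2) at 0 h and from 79.6 to 124 CPM (median 112) at 3 h. The lowest of these 3 h values belongs to that library, and the next lowest was 108.1 CPM, above every library at 0 h. Over 12 libraries the log2 fold change was 0.27 (SE 0.09) at an unadjusted p of 0.0109. Without that library it was 0.35 (SE 0.04), with an edgeR adjusted p of 0.00742, and without both libraries that went against a label 0.37, with an edgeR adjusted p of 0.0186. The WT fold change was 0.33 (SE 0.04). Maml2 encodes a coactivator of Notch signalling. It ranged from 22.8 to 30.6 CPM (median 24.1) at 0 h and from 25.3 to 53.2 CPM (median 39.2) at 3 h, which is a log2 fold change of 0.65 (SE 0.14), and without both libraries that went against a label this was 0.73.

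**Figure D3:**
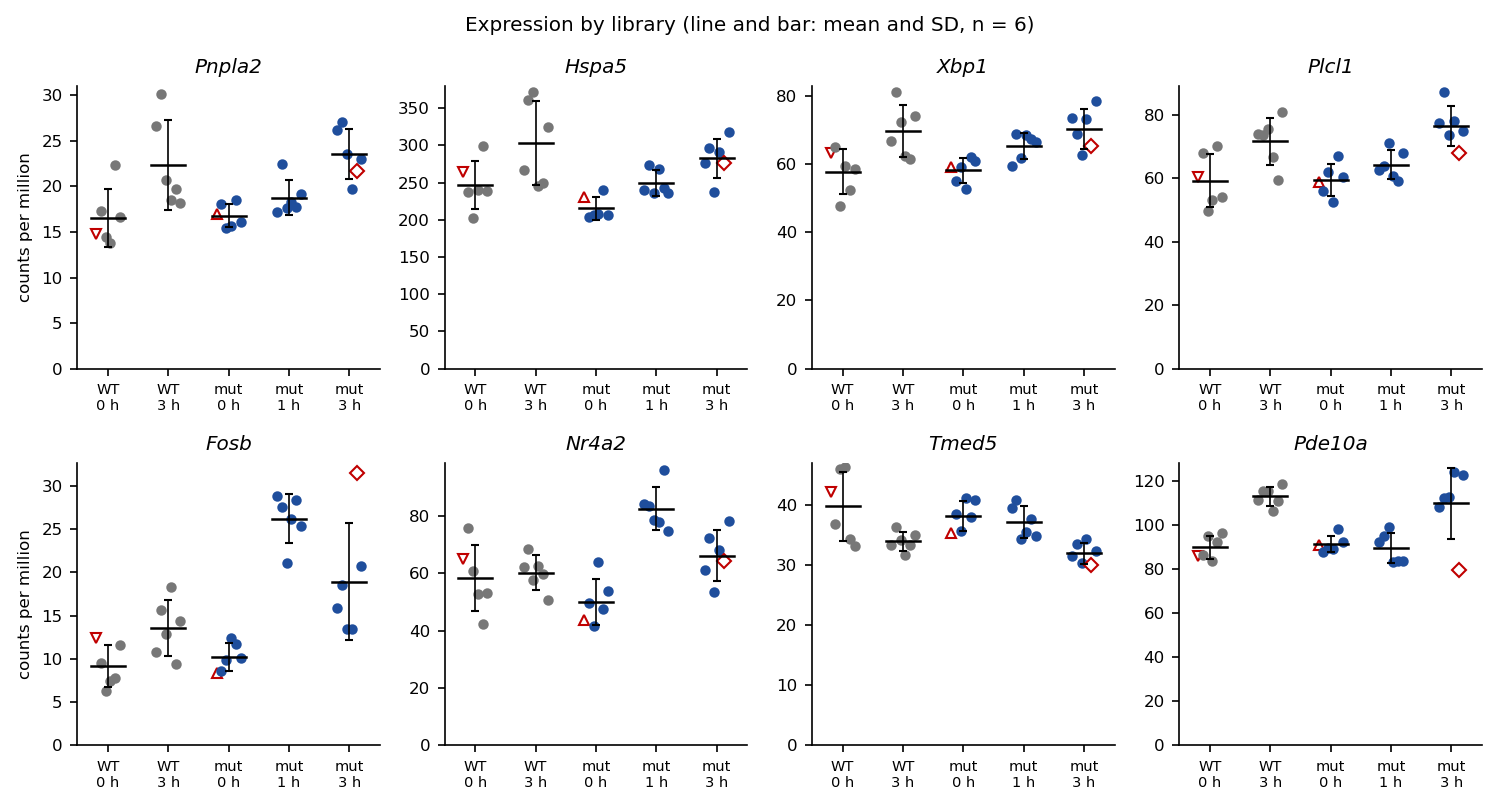
CPM of 8 genes (y axes, from 0) in every library of WT at 0 h and 3 h and of mutants (mut) at 0 h, 1 h and 3 h. Points are libraries, black lines and bars are the mean and SD of 6 libraries, and red open symbols mark the libraries labelled mutant 3 h female 2 (diamond), mutant 0 h male 1 (triangle) and WT 0 h male 1 (inverted triangle). In Pde10a the diamond lies at 79.6 CPM, below all mutants at 0 h, while in Fosb it is the highest point at 31.5 CPM.

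Of the 20 pathway lists, that of the ER had the most members at an unadjusted p under 0.05 by number, though it was also one of the longest. The unfolded protein response raises chaperones and folding enzymes of the ER through the sensors ATF6, IRE1 and PERK, with XBP1 as the factor that IRE1 activates by splicing its RNA. The ER stress element, written CCAAT, 9 bases, CCACG, is the promoter sequence through which ATF6 and the CCAAT-binding factor NF-Y act. Of the 29 ER genes listed, all were tested, 14 were higher at an unadjusted p under 0.05 and 0 were lower, beside 4.73% and 3.63% of all genes. The median log2 fold change of the list was 0.13, beside -0.01 over all genes. Without both libraries that went against a label, 15 were higher and 0 lower, with a median of 0.15. The list was put together with earlier results of these data known.

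The element was searched on both strands in RefSeq promoters (GRCm38.p6, 250 bases before to 50 after the annotated start). It was found in 9 of the 24 ER genes that have a promoter in the table (37.5%), and in 37 of 27025 genes overall (0.137%). ER genes are known by such elements, so the share describes the list and not the response. The promoters of Hspa5 at chr2:34771840-34772139 (+ strand), Creld2 at chr15:88819396-88819695 (+ strand) and Syvn1 at chr19:6046326-6046625 (+ strand) are shown because these genes hold the element and were higher at 3 h. That of Hsp90b1 at chr10:86705395-86705694 (- strand) is shown because it holds 2 copies and its groups overlapped. Each is written 5′ to 3′ on the strand of the gene, with the element's CCAAT and CCACG, or their reverse complements, in capitals.
Hspa5: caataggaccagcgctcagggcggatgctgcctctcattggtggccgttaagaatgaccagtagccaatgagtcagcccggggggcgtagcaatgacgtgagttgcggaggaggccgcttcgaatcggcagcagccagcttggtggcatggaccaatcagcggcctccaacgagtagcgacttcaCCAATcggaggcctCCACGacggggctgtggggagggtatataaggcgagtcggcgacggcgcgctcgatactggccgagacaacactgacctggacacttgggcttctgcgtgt
Creld2: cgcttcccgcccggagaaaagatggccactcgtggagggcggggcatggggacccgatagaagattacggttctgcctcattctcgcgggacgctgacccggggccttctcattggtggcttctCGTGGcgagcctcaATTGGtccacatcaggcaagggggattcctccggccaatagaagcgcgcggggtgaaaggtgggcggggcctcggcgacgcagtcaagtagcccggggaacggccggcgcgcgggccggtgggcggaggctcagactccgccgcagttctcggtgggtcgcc
Syvn1: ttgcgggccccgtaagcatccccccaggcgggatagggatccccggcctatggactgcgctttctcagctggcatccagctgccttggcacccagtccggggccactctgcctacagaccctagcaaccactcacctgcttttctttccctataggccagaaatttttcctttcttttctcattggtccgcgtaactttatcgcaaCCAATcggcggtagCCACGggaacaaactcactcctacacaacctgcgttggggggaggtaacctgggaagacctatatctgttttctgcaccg
Hsp90b1: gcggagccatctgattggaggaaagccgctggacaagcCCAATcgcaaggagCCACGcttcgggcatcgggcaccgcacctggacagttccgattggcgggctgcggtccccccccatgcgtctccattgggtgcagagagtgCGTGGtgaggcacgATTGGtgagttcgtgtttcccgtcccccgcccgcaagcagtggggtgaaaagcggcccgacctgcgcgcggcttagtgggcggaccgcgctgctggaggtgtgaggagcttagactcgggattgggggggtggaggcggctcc
Of the 9 genes with the element, 6 were higher at an unadjusted p under 0.05, with a median log2 fold change of 0.14. Of the 15 whose promoter lacks these letters, 5 were, with a median of 0.07. Both subsets are small and no test was made of the difference.

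Hspa5 encodes BiP, the main chaperone of the ER lumen and the protein that holds the stress sensors inactive. The gene, at chr2:34772090-34776529, ranged from 203 to 240 CPM (median 207) at 0 h and from 238 to 317 CPM (median 283) at 3 h. In 5 of 6 libraries at 3 h the level was above all at 0 h. For Hspa5 this gave a log2 fold change of 0.39 (SE 0.06) at an unadjusted p of 3.66e-05, and the adjusted p was 0.3 in edgeR and 8.9e-05 in DESeq2. Without both libraries that went against a label the log2 fold change was 0.44, and in WT it was 0.28 (SE 0.13). Hspa5 overlaps the gene Rabepk in the annotation, and reads in the overlap may have been shared or lost.

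In 5 of the 29 genes all 6 libraries at 3 h lay above all 6 at 0 h, where 0.316% of all genes did. These were Xbp1, Atf6, Manf, Hyou1 and Syvn1, singled out after their values were seen. Xbp1, the transcription factor, ranged from 52.5 to 62.1 CPM (median 59.0) at 0 h and from 62.5 to 78.5 CPM (median 71.0) at 3 h. The fold change in log2 was 0.27 (SE 0.06), and the adjusted p was 0.3 in edgeR and 0.0128 in DESeq2. Atf6, the membrane-bound sensor, ranged from 94.7 to 108 CPM (median 103) at 0 h and from 109 to 126 CPM (median 116) at 3 h, with a log2 fold change of 0.18 (SE 0.04). Manf, a secreted protein that helps neurons survive ER stress, ranged from 33.5 to 37.6 CPM (median 35.7) at 0 h and from 38.5 to 45.3 CPM (median 41.5) at 3 h, and Hyou1, a large chaperone that exchanges the nucleotide of BiP, ranged from 102 to 109 CPM (median 106) at 0 h and from 111 to 132 CPM (median 115) at 3 h. Syvn1, the ubiquitin ligase that marks misfolded ER proteins for degradation, ranged from 46.0 to 50.4 CPM (median 49.7) at 0 h and from 51.2 to 56.2 CPM (median 52.4) at 3 h. Their log2 fold changes were 0.22 (SE 0.05), 0.16 (SE 0.05) and 0.13 (SE 0.04).

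Sdf2l1, a partner of BiP in folding, had the largest log2 fold change of the 14, 0.42 (SE 0.11), and ranged from 7.34 to 10.7 CPM (median 8.55) at 0 h and from 8.88 to 13.5 CPM (median 12.5) at 3 h. Creld2, a protein with disulfide isomerase activity, had a log2 fold change of 0.30 (SE 0.09). Pdia6, a protein disulfide isomerase, ranged from 89.7 to 96.6 CPM (median 93.4) at 0 h and from 80.3 to 126 CPM (median 110) at 3 h. Its lowest value at 3 h was that of the library labelled 3 h female 2, and its log2 fold change was 0.21 (SE 0.09) with that library and, without both libraries that went against a label, 0.30. Hsp90b1, an abundant chaperone, overlapped between groups, since it ranged from 275 to 315 CPM (median 293) at 0 h and from 268 to 343 CPM (median 305) at 3 h. The groups differed by 0.06 (SE 0.06) on the log2 scale. In WT, 9 of the 29 genes were higher and 0 lower at an unadjusted p under 0.05, beside 4.23% and 4.04% of all genes tested there, and 0 of the 29 passed that p in the test of a difference between genotypes.

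**Figure D4:**
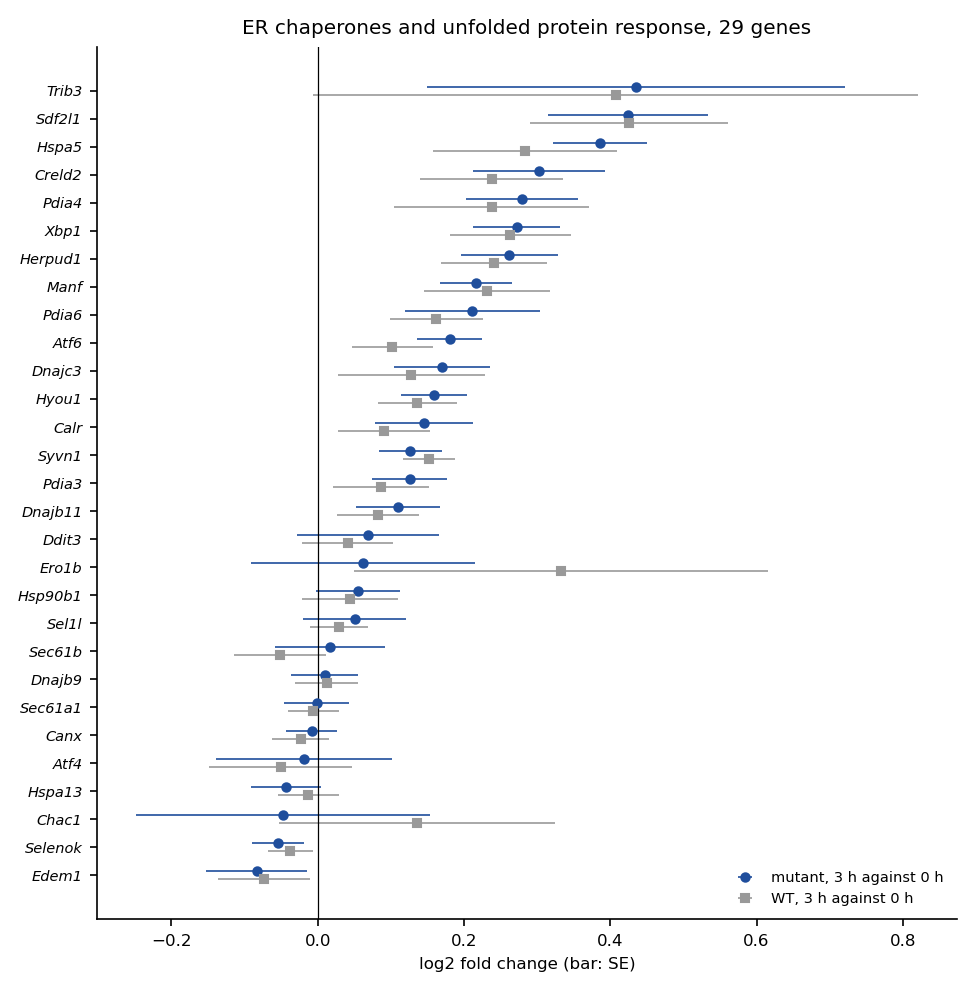
Log2 fold change at 3 h against 0 h (x axis, bar SE) of the 29 ER and unfolded protein response genes, in mutants (circles) and WT (squares), 6 libraries per group. In mutants 22 of the 29 points lie above 0, with Hspa5 at 0.39 and Hsp90b1 at 0.06.

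Of the 20 pathway lists, that of the stress hormone receptor and its targets had the largest median. Corticosterone, released by shock and by a new place, activates the glucocorticoid receptor Nr3c1, which raises a set of genes in neurons, glia and vessels. Of the 23 genes listed, 9 were higher and 1, the receptor, was lower at an unadjusted p under 0.05, beside 4.73% and 3.63% of all genes, and the median log2 fold change was 0.42. Without both libraries that went against a label these were 7, 1 and 0.34. In WT they were 9, 1 and 0.39, beside 4.23% of all genes higher and 4.04% lower there. At 0 h the libraries labelled male 2 and female 2 stood above the other 4 in several targets, chosen here after their values were seen. Sgk1, a kinase induced by the hormone, was at 149.7 and 211.4 CPM in these 2 and at 56.0 to 61.1 CPM in the other 4, and ranged from 77.6 to 232.2 CPM at 3 h. Tsc22d3, which encodes the leucine zipper protein GILZ, was at 79.1 and 89.6 CPM in these 2 and at 36.1 to 42.6 CPM in the other 4, and at 57.8 to 99.8 CPM at 3 h. The part of these 2 libraries in the list's counts was not tested.

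Fkbp5, a co-chaperone that lowers the receptor's affinity for hormone, ranged from 49.2 to 84.3 CPM (median 64.5) at 0 h and from 71.9 to 134 CPM (median 105) at 3 h. For Fkbp5 the log2 fold change was 0.57 (SE 0.17), and the unadjusted p was 0.00582. The gap junction gene Gjb6 of astrocytes ranged from 36.9 to 58.1 CPM (median 41.9) at 0 h and from 55.6 to 75.8 CPM (median 62.0) at 3 h, and Klf9, a transcription factor induced by the hormone, ranged from 178 to 237 CPM (median 180) at 0 h and from 219 to 269 CPM (median 247) at 3 h. Their log2 fold changes were 0.52 (SE 0.12) and 0.32 (SE 0.08), and 4 of 6 libraries at 3 h lay above all at 0 h in each. Map3k6, a stress kinase, had the largest log2 fold change of the 9 higher members, 0.95 (SE 0.26). Its level was low, and it ranged from 1.42 to 3.83 CPM (median 2.86) at 0 h and from 3.07 to 7.72 CPM (median 5.61) at 3 h. Sult1a1, a sulfotransferase, ranged from 3.85 to 9.40 CPM (median 5.58) at 0 h and from 7.63 to 12.8 CPM (median 10.2) at 3 h with a log2 fold change of 0.76 (SE 0.23), and Mertk, a receptor for phagocytosis in glia, ranged from 23.1 to 43.2 CPM (median 31.1) at 0 h and from 28.9 to 54.7 CPM (median 48.6) at 3 h with a log2 fold change of 0.46 (SE 0.19). Nr3c1 itself ranged from 107 to 137 CPM (median 116) at 0 h and from 90.7 to 124 CPM (median 95.7) at 3 h. This gave a log2 fold change of -0.24 (SE 0.08) at an unadjusted p of 0.0135, and 4 of 6 libraries at 3 h lay below all at 0 h. The summed astrocyte markers ran from 5549 to 6619 CPM at 0 h and from 5687 to 6501 CPM at 3 h. In this bulk tissue, a larger share of a cell type and more RNA per cell cannot be told apart.

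Few activity-regulated genes were higher at 3 h than at 0 h at an unadjusted p under 0.05, and most of their lists held 1 such gene. Immediate early genes were split into lists of AP-1 factors, Egr factors, Nr4a receptors, other regulators, effectors and inhibitors of the MAP kinase pathway. At an unadjusted p under 0.05, 2 of 10 AP-1 genes, 1 of 6 Egr genes, 1 of 3 Nr4a genes, 1 of 20 other regulators and 1 of 12 MAP kinase inhibitors were higher, and 0 were lower. Of 28 effectors, 4 were higher and 3 lower. Over all genes these shares were 4.73% and 3.63%.

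Fosb, whose stable product ΔFosB outlasts the stimulus, was the AP-1 gene with no overlap. It ranged from 8.29 to 12.4 CPM (median 9.98) at 0 h and from 13.4 to 31.5 CPM (median 17.2) at 3 h. The log2 fold change of Fosb was 0.89 (SE 0.16), at an unadjusted p of 0.000149, and the adjusted p was 0.3 in edgeR and 0.00018 in DESeq2. The highest value is that of the library labelled 3 h female 2, and the 5 others ran from 13.4 to 20.8 CPM, still above every library at 0 h. Without both libraries that went against a label the log2 fold change was 0.69. At 1 h the median in mutants was 26.8 CPM, and the level at 3 h was lower than at 1 h by 0.49 on the log2 scale. Fosl2, of the same family, ranged from 37.9 to 57.2 CPM (median 51.0) at 0 h and from 56.1 to 73.0 CPM (median 58.9) at 3 h with a log2 fold change of 0.30 (SE 0.08).

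Fos did not show the same picture. It ranged from 6.27 to 19.8 CPM (median 8.69) at 0 h and from 6.43 to 44.0 CPM (median 9.47) at 3 h, and the 44.0 CPM of the library labelled 3 h female 2 stood apart from the 5 others, which reached 11.7 CPM. Mutants at 1 h ran from 24.2 to 33.2 CPM. With all 12 libraries the log2 fold change was 0.23 (SE 0.54), without that library -0.39, and without both libraries that went against a label -0.05. With the choroid plexus sum as a covariate it was -0.33. Egr1 turned in the same way, from 0.11 (SE 0.24) to -0.12 and -0.04, and in that library it was at 294 CPM where the 5 others ran from 92.8 to 179 CPM. For Fos, Fosb, Egr1, Egr2, Nr4a1 and Arc, this library lay above the other 5 at 3 h, and within or above the range of the mutants at 1 h. Not every immediate early gene did so. In this library Nr4a2, at 64.15 CPM, and Egr3, at 69.8 CPM, lay within the range of the other 5 at 3 h. Nr4a1 had a log2 fold change of -0.01 (SE 0.31), and its sign depended on the setting.

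Egr3, a factor induced in dentate and CA1 neurons, ranged from 40.8 to 58.8 CPM (median 50.4) at 0 h and from 45.7 to 76.5 CPM (median 67.1) at 3 h. For Egr3 this gave a log2 fold change of 0.36 (SE 0.10) at an unadjusted p of 0.0027, and in WT it was 0.32 (SE 0.08). Nr4a2, an orphan nuclear receptor needed for long-term memory, ranged from 41.6 to 63.8 CPM (median 48.6) at 0 h and from 53.3 to 78.4 CPM (median 66.1) at 3 h. For Nr4a2 the log2 fold change was 0.41 (SE 0.09), and the unadjusted p was 0.000591. In WT the log2 fold change of Nr4a2 was 0.06 (SE 0.09), and the difference between genotypes had an unadjusted p of 0.0499 and an adjusted p of 1 in edgeR. Klf2, a Krüppel-like transcription factor, ranged from 4.60 to 6.85 CPM (median 5.67) at 0 h and from 5.88 to 10.8 CPM (median 7.59) at 3 h. On the log2 scale the difference was 0.51 (SE 0.14) in mutants and -0.01 (SE 0.15) in WT, and the difference had an unadjusted p of 0.0203, also with an adjusted p of 1. The WT median of Nr4a2 at 0 h, 56.8 CPM, was above that of mutants at 0 h, 48.6 CPM.

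Among the effectors, Homer1, a scaffold of glutamate receptors, ranged from 104 to 129 CPM (median 125) at 0 h and from 118 to 173 CPM (median 139) at 3 h with a log2 fold change of 0.19 (SE 0.07). Mapk4, an atypical MAP kinase, had a log2 fold change of 0.25 (SE 0.07), Nptx2, a secreted organiser of excitatory synapses, 0.27 (SE 0.11), and Acan, the proteoglycan of perineuronal nets, 0.29 (SE 0.10). Syt4, a synaptotagmin of vesicles, was lower, with all 6 libraries at 3 h below all 6 at 0 h. It ranged from 120 to 142 CPM (median 123) at 0 h and from 98.3 to 120 CPM (median 116) at 3 h, and its log2 fold change was -0.17 (SE 0.05).

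Compared with mutants at 1 h, 5 of the 9 AP-1 genes tested there, 2 of 6 Egr genes, 3 of 3 Nr4a genes, 9 of 20 other regulators and 9 of 28 effectors were lower at 3 h at an unadjusted p under 0.05, beside 3.83% of all genes. Of the 29 ER genes 8 were higher at 3 h than at 1 h and 0 lower, beside 4.17% of all genes higher. This comparison uses the same 3 h libraries. Hspa5 had a median of 207 CPM at 0 h, 241 at 1 h and 283 at 3 h. Nr4a2 had 48.6, 81.1 and 66.1 CPM at these times. The ER chaperone was thus highest at 3 h and the receptor at 1 h.

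Other chromatin regulators with a demethylase domain were more often higher than lower. Of 14 histone lysine demethylases outside the Kdm5 family, 7 were higher and 0 lower at an unadjusted p under 0.05, beside 4.73% and 3.63% of all genes, and 6 and 0 without both libraries that went against a label. The median log2 fold change was 0.10, and 0.05 without both. Kdm7a, which acts on lysines 9 and 27 of histone H3, ranged from 97.0 to 122 CPM (median 104) at 0 h and from 117 to 152 CPM (median 121) at 3 h. The log2 fold change of Kdm7a was 0.28 (SE 0.07), at an unadjusted p of 0.00218. Kdm4b, which acts on lysine 9, ranged from 85.8 to 103 CPM (median 98.6) at 0 h and from 103 to 119 CPM (median 110) at 3 h with a log2 fold change of 0.19 (SE 0.05), and Kdm3a, also of lysine 9, had a log2 fold change of 0.16 (SE 0.05). In WT 4 of the 14 were higher at that p, beside 4.23% of all genes.

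Fewer members at that p were found in a list of the Kdm5 family, Jarid2 and the enzymes that write methylation of lysine 4. This list also holds partner subunits of those enzymes and the demethylases Kdm1a and Kdm1b, which are not in the list above. Of 18 genes, 2 were higher and 0 lower at an unadjusted p under 0.05, beside 4.73% and 3.63% of all genes, namely the methyltransferases Kmt2c and Kmt2a. Kmt2c ranged from 135 to 166 CPM (median 143) at 0 h and from 148 to 170 CPM (median 163) at 3 h, with a log2 fold change of 0.13 (SE 0.04). Kmt2a had a log2 fold change of 0.09 (SE 0.04). The groups overlapped in both. Without the library labelled 3 h female 2 alone, 4 of the 18 were higher at that p, beside 5.97% of all genes.

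Clock genes were examined because their levels follow the time of day, and the hour at which each mouse was killed is not given in the sources used here. Of 21 clock genes, 7 were higher and 2 lower at an unadjusted p under 0.05, beside 4.73% and 3.63% of all genes. Without both libraries that went against a label these were 4 and 2, beside 5.13% and 3.77% of all genes. Per2, a repressor of the clock, ranged from 28.2 to 49.4 CPM (median 36.4) at 0 h and from 35.2 to 63.5 CPM (median 53.3) at 3 h with a log2 fold change of 0.50 (SE 0.16). Bhlhe41, also a repressor, had a log2 fold change of 0.32 (SE 0.10). Arntl, the activator BMAL1, was lower. It ranged from 34.1 to 47.2 CPM (median 41.8) at 0 h and from 28.2 to 40.5 CPM (median 32.6) at 3 h, with a log2 fold change of -0.30 (SE 0.11), and the nuclear receptor Rorb had a log2 fold change of -0.29 (SE 0.07). Rorb is also one of the neocortex markers used above. In WT 2 of the clock genes were higher and 1 lower at that p, beside 4.23% and 4.04% of all genes there. The log2 fold change of Per2 in WT was 0.20 (SE 0.10). The part of the hour of collection in the other results was not tested.

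**Figure D5:**
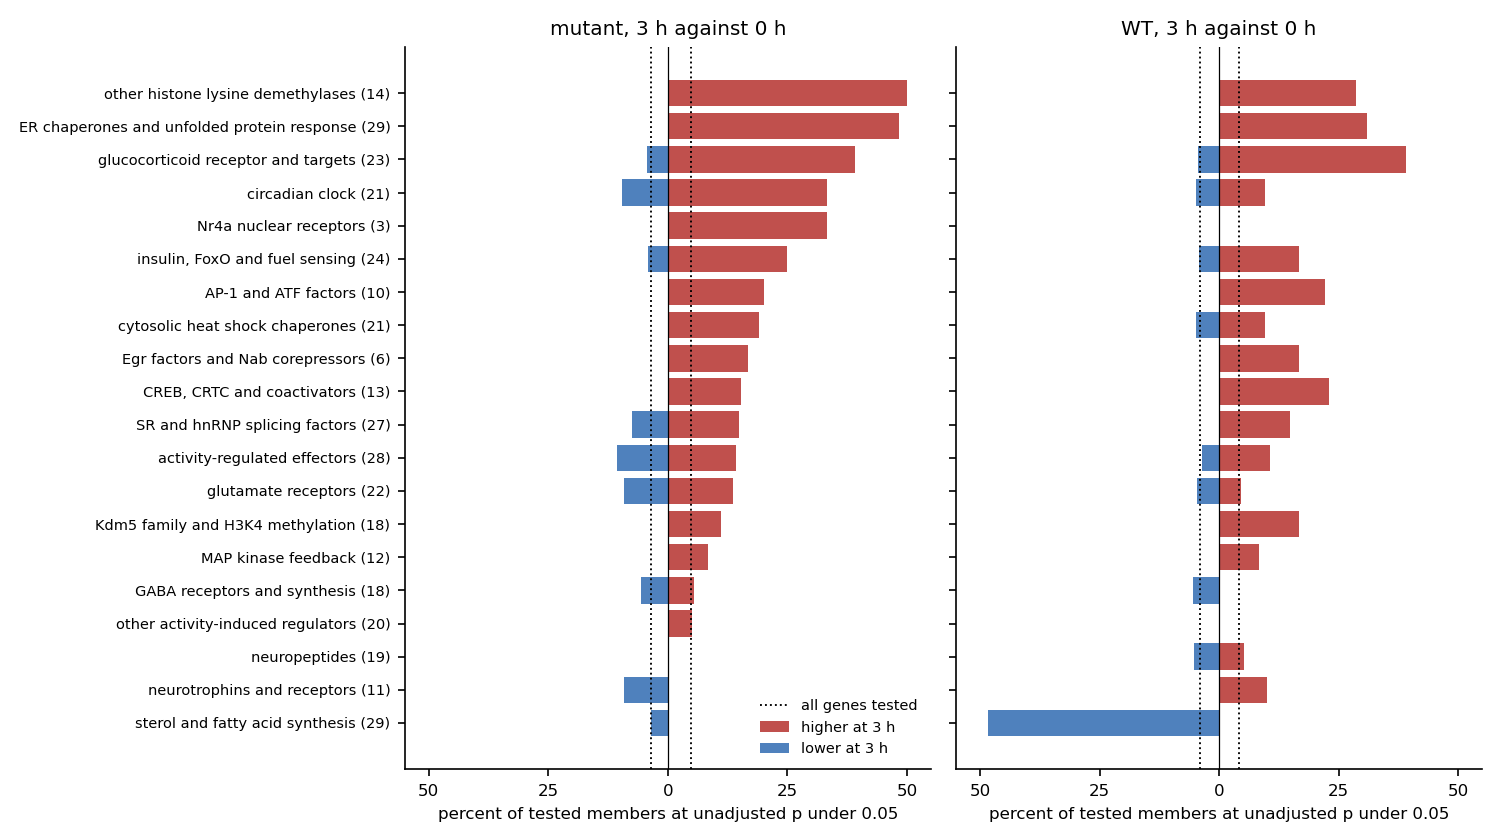
Percent of the tested members of 20 gene lists (y axis, number tested in brackets) that were higher (red, right) or lower (blue, left) at 3 h at an unadjusted edgeR p under 0.05, in mutants (left panel) and WT (right panel). Dotted lines give the same share over all genes tested, 4.73% higher and 3.63% lower in mutants. The bar of the ER list in mutants stands for 14 of 29 genes.

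Among genes of fuel use, more were higher than lower at that p. Of 24 genes of insulin signalling, FoxO factors and fuel sensing, 6 were higher and 1 lower at an unadjusted p under 0.05, beside 4.73% and 3.63% of all genes. Irs2, the adaptor of the insulin receptor that FoxO factors raise, ranged from 47.2 to 65.9 CPM (median 54.3) at 0 h and from 63.7 to 80.6 CPM (median 71.4) at 3 h with a log2 fold change of 0.36 (SE 0.08), and the adjusted p was 0.3 in edgeR and 0.00676 in DESeq2. Slc2a1, the glucose transporter of the blood-brain barrier, ranged from 48.0 to 70.7 CPM (median 54.0) at 0 h and from 56.1 to 95.4 CPM (median 73.7) at 3 h with a log2 fold change of 0.43 (SE 0.12). Foxo3 had a log2 fold change of 0.27 (SE 0.08). The 1 lower member, Irs4, lay between 0.0322 and 3.13 CPM at 0 h and overlapped with 3 h. The highest values at 0 h, 3.13 and 1.88 CPM, were those of the libraries labelled male 1, which went against its genotype label, and female 2, and the 4 others reached 0.545 CPM.

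Genes of sterol and fatty acid synthesis were mostly lower by sign, with 1 at that p. Of 29 genes 0 were higher and 1 was lower at an unadjusted p under 0.05, beside 4.73% and 3.63% of all genes, while by sign alone 8 were higher and 21 lower. The 1 was Insig1, the ER anchor that holds back sterol synthesis, which ranged from 56.9 to 75.8 CPM (median 61.8) at 0 h and from 36.6 to 68.1 CPM (median 51.5) at 3 h. The fold change in log2 was -0.32 (SE 0.13). Without the library labelled 3 h female 2, 7 of the 29 were lower at that p, beside 5.07% of all genes, and without both libraries that went against a label 6, among them Mvd at -0.28 and Acat2 at -0.20 on the log2 scale. In WT 14 were lower at that p, beside 4.04% of all genes, with a log2 fold change of -0.36 (SE 0.07) in Mvd, an enzyme of the mevalonate pathway, and -0.25 (SE 0.05) in Cyp51, a demethylase of lanosterol. None of the 29 passed an unadjusted p of 0.05 in the test of a difference between genotypes.

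At an unadjusted p under 0.05, of 22 glutamate receptor genes 3 were higher and 2 lower, of 18 GABA genes 1 and 1, of 11 neurotrophin genes 0 and 1, and of 19 neuropeptides 0 and 0, beside 4.73% and 3.63% of all genes. Without the library labelled 3 h female 2 alone, these were 4 and 2, 2 and 4, 2 and 2, and 0 and 3, beside 5.97% and 5.07%. Grm2, an inhibitory receptor of mossy fibre terminals, ranged from 61.6 to 72.6 CPM (median 68.4) at 0 h and from 67.2 to 117 CPM (median 85.2) at 3 h with a log2 fold change of 0.34 (SE 0.12). Grin2a, a subunit of NMDA receptors, had a log2 fold change of 0.27 (SE 0.12) and Grm3, a glial receptor related to Grm2, -0.16 (SE 0.05). Gabra3, a subunit of GABA-A receptors, had a log2 fold change of -0.18 (SE 0.07). Of 13 CREB genes 2 were higher and 0 lower at that p, Creb3l2 at 0.31 (SE 0.09) and Crtc3 at 0.10 (SE 0.05).

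Of 27 SR and hnRNP genes 4 were higher and 2 lower at an unadjusted p under 0.05, beside 4.73% and 3.63% of all genes. Sfpq, a paraspeckle protein, ranged from 204 to 230 CPM (median 212) at 0 h and from 229 to 288 CPM (median 250) at 3 h with a log2 fold change of 0.24 (SE 0.05), and the adjusted p was 0.3 in edgeR and 0.00503 in DESeq2. Cirbp, the cold-inducible RNA-binding protein, which is less expressed when temperature is higher, ranged from 51.6 to 60.4 CPM (median 58.4) at 0 h and from 42.7 to 53.0 CPM (median 49.7) at 3 h with a log2 fold change of -0.25 (SE 0.06). In WT Cirbp had a log2 fold change of -0.06 (SE 0.08). Of 21 cytosolic heat shock genes 4 were higher and 0 lower at that p, and 2 and 0 without both libraries that went against a label. Hspb1 had a log2 fold change of 0.49 (SE 0.17) and the near-identical pair Hspa1a and Hspa1b, whose reads cannot be separated with certainty, 0.28 (SE 0.12) and 0.34 (SE 0.11).

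Mutant and WT mice were compared in 2 ways that share no library between the genotypes. First, of the 837 genes higher in mutants at an unadjusted p under 0.05 and tested in both genotypes, 277 were also higher in WT at that p, which is 33.1% of the mutant list and 37% of the WT list of 749, where 4.27% of all genes were higher in WT. Their sign was the same in WT in 765 of the 837 (91.4%), where 47% of all genes were higher in WT. Of 640 lower genes, 132 were also lower in WT at that p (20.6% of the mutant list and 18.6% of the WT list of 710), where 4.05% of all genes were. By sign alone 559 (87.3%) were lower in WT, beside 53% of all genes. Without the 3 libraries of the 24 that went against a label, 223 higher genes were shared, which is 24.5% of the mutant list of 910 and 44.6% of a shorter WT list of 500, where 2.84% of all genes were higher in WT. Of lower genes 108 were shared, 16.3% of the mutant list of 663 and 21.1% of the WT list of 512, where 2.9% of all genes were lower in WT. By sign alone, 91.8% of the higher and 84.8% of the lower mutant genes had the same sign in WT, beside 48.4% and 51.6% of all genes. All 25 genes of smallest p in mutants had the same sign in WT, 18 at an unadjusted p under 0.05, and 24 had a smaller fold change in WT. The 25 were chosen for their p in mutants, which alone favours a larger fold change there.

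Second, the difference between the mutant and the WT response was tested as an interaction over 24 libraries. By edgeR 0 of 18078 genes were called, with a smallest adjusted p of 1, and 142 genes (0.785%) had a larger and 132 (0.73%) a smaller fold change in mutants at an unadjusted p under 0.05. DESeq2 also called 0, with a smallest adjusted p of 0.26. Without the 2 mutant libraries and the WT library that went against a label, edgeR called 0, with 161 and 171 genes at an unadjusted p under 0.05. The data thus gave no gene whose response at 3 h differed between genotypes after adjustment, which does not show that the responses are equal.

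The gene with the smallest p in the interaction was Mcc, a suppressor of Wnt signalling. In mutants it ranged from 22.3 to 26.1 CPM (median 23.6) at 0 h and from 17.6 to 22.8 CPM (median 18.7) at 3 h, with a log2 fold change of -0.30 (SE 0.08). In WT it was 0.17 (SE 0.07), and the difference had an unadjusted p of 0.00021. Tph1, Ccl9, Mrpl2 and 4930483K19Rik followed. Tph1, an enzyme of serotonin synthesis, and Ccl9, a chemokine, were at low levels, with medians of 0.305 and 1.21 CPM in mutants at 3 h, and the highest Tph1 value, 0.91 CPM, was that of the library labelled 3 h female 2. Mrpl2, a mitochondrial ribosomal protein, had a log2 fold change of -0.19 (SE 0.05) in mutants and 0.04 (SE 0.04) in WT. The gene 4930483K19Rik, a transcript of unknown function that overlaps the sterol enzyme gene Lss, had a log2 fold change of 0.18 (SE 0.13) and -0.44 (SE 0.15).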

How the data were processed

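Poly-A RNA of the dorsal hippocampus was sequenced as 150-base read pairs. Per the labels, the authors aligned reads to mm10 with STAR 2.7.8a and counted them per gene with featureCounts 2.0.1. The deposited values are raw counts, with 27179 genes per library, of which 25275 were named from RefSeq (GRCm38.p6) and the rest, 1.22% of the counts, have no name here. The gene annotation, the strand setting and the treatment of multi-mapping reads are not given in the sources used here, and 59 of the 118 genes whose fold changes were followed overlap another annotated gene.

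Counts were tested with edgeR 4.0.16 (R 4.3.3): filterByExpr with a minimum count of 10, TMM scaling, sex as labelled as a covariate, robust quasi-likelihood fit and two-sided F-test, with Benjamini-Hochberg adjustment over all genes tested and a threshold of 0.05. The SE of a log2 fold change is its size divided by the square root of F. Every unadjusted p in the text is from this test. The 12 mutant libraries were fitted on their own, as were the 12 WT libraries and the 12 mutant libraries at 1 h and 3 h, and the interaction was fitted on 24. Library totals were 56774704 to 78675309 counts, so a count of 0 allows up to 3 reads in a library, which covers counting error only. Alternatives were DESeq2 1.42.0, limma 3.58.1 voom with sample quality weights, RLE size factors, no filter, 10 counts in every library, no sex covariate, sex as the counts show it, 1 fit of 18 or 36 libraries, a block of the replicate number, and fits that leave out 1 library each. The fits without the libraries that went against a genotype label and the fit with a choroid plexus covariate were added after seeing the data.

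Genes named are the 25 with the smallest p with all 12 libraries, the 25 without the library labelled 3 h female 2, up to 6 per list with the smallest p in either fit, the 5 with the smallest p in the interaction, and Kdm5b. Xbp1, Atf6, Manf, Hyou1 and Syvn1 as a set, and Nr3c1, Creld2, Hsp90b1, Eya1, Sgk1, Tsc22d3 and Arc, were also named after their values were seen. The comparison, the gene lists and the tests were chosen with earlier results of these data known. Some genes that meet these rules are not reported here. Lists are described by counts and medians without a test.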

Additional observations from a re-analysis of the deposited data

Results flagged for a closer look

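In each group of 6 mutant libraries, the highest or lowest library was flagged where its gap to the nearest other exceeded the 95% critical value of Dixon's test. Of 266 such groups examined, 23 were flagged. The test's nominal rate is about 1 in 20 for independent values. That rate does not hold for these groups, whose genes were mostly chosen by their p in the same libraries. Some genes were chosen by their p in the fit without the library labelled 3 h female 2, which favours genes where it stands apart. That library accounts for 7, more than any other library. It held 44.03 CPM of Fos, 79.58 CPM of Pde10a, 0.908 CPM of Tph1, 0.6168 CPM of Irs4 and 41.02 CPM of Dhcr7, with summed marker levels of 1018 CPM for interneurons and 277.6 CPM for thalamus. Of these, Pde10a was lower and the others higher than in the 5 other libraries at 3 h.

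Among the other libraries at 3 h, male 2 stood apart in Dgat2 (148 CPM), male 3 in Tra2a (61.66 CPM), female 1 in the neocortex markers (239.5 CPM), and female 3 in Nptx2 (58.18 CPM) and the CA1 markers (932.2 CPM).

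At 0 h, male 1, which also goes against its genotype label, stood apart in the choroid plexus markers (4026 CPM), Abcc4 (14.29 CPM), Homer1 (104.2 CPM) and Hnrnpd (173.2 CPM). Female 2 stood apart in its total (78680000 counts), Acan (10.26 CPM), Kdm7a (121.9 CPM) and Cirbp (51.62 CPM), and female 3 in Maml2 (30.65 CPM), Disp3 (71.68 CPM) and Hspa1b (14.62 CPM). The origin of these values was not tested.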

How the results depend on the processing

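The number of genes called in the mutant comparison was 0 with edgeR, with limma and in most fits with 1 library left out, where it ran from 0 to 10 higher and from 0 to 0 lower. The 10 came without the library labelled 0 h female 2, and 1, Pde10a, without that labelled 3 h female 2 or without both libraries that went against a label. DESeq2 called 109 higher and 32 lower, with a prior 190 and 55, and without both libraries 153 and 51. In WT, DESeq2 called 52 and 30 where edgeR called 0, and leaving out 1 library gave 0 to 7 higher and 0 to 1 lower. Mutants at 3 h against 1 h gave 0 calls in edgeR, 36 and 38 in DESeq2, and 7 and 13 without the library labelled 3 h female 2. The number of genes with a smaller response in mutants at an unadjusted p under 0.05 was 132 with that library and 224 without it. Without all 3 libraries that went against a label it was 171. No other single library was left out of the interaction fit. Clock genes higher went from 7 to 4 without both libraries and to 8 without 3 h female 2, and sterol genes lower from 1 to 6, or to 7 without 3 h female 2 alone. Without that library alone, the genes lower went from 1 to 4 among GABA genes and from 0 to 3 among neuropeptides, and the genes higher from 2 to 4 in the Kdm5 and H3K4 methylation list. The cause was not tested.

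Of 118 genes followed through 26 alternatives (25 for Tph1 and Irs4), 115 kept their sign. Fos turned to -0.39 without 3 h female 2, -0.33 with the choroid plexus covariate, and -0.0452 (edgeR) and -0.0425 (DESeq2) without both libraries. Egr1 turned to -0.0037 with limma and to -0.12, -0.0909, -0.0376 and -0.0378 in those 4 settings. Nr4a1, at -0.01, turned to 0.0019 with the DESeq2 prior, 0.0049 without the sex covariate, 4e-04 in one fit of 36 libraries, and 0.04 to 0.14 in 6 fits with a library left out. Over all fits that leave out 1 library, Fos ran from -0.3919 to 0.6072, Egr1 from -0.1219 to 0.2317 and Nr4a1 from -0.308 to 0.1356.

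With the replicate number as a block, 0 genes were called and 848 and 646 were higher and lower at an unadjusted p under 0.05. Deviations of same-numbered libraries correlated from 0.19 to 0.22 in the 3 female pairs, each of which correlated best with its own number, and from -0.26 to -0.09 in the 3 male pairs. As not every pair was above 0.1, the numbers were not taken to pair the mice. Depth limits genes such as Irs4 and Tph1, whose median level at 3 h was below that of 1 CPM.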
